A study of Mus musculus with 6 samples.

Results

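The genes described here encode the subunits of the mitochondrial respiratory chain and of ATP synthase, measured in mouse macrophages kept with M-CSF, with FSL-1, or with FSL-1 and nutlin-3a. They were chosen by symbol: probe sets whose annotation names exactly 1 gene with a symbol of the Ndufa, Ndufb, Ndufc, Ndufs, Ndufv, Sdh, Uqcr, Cox4 to Cox8 or Atp5 families, keeping the brightest probe set of each gene. This gave 89 genes, measured by 98 probe sets, of 22180 genes in all. By complex, 32 belong to complex I, 4 to complex II, 7 to complex III, 10 to complex IV and 17 to ATP synthase, which makes 70 genes. The other members are 7 tissue-specific forms of complex IV subunits, 8 complex I assembly factors (Ndufaf1 to Ndufaf8), 2 pseudogenes, and Ndufa4l2 and Cox7a2l. Ndufa4, named after complex I, is counted with complex IV, where the protein is now placed.

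The study used bone marrow cells of C57Bl/6 mice, grown for 5 days with 20 ng/ml M-CSF, the growth factor that turns marrow precursors into macrophages. The cells were then replated for 6 days with 50 ng/ml M-CSF (the M-CSF group), with 20 ng/ml FSL-1 (the FSL-1 group), or with 20 ng/ml FSL-1 and 10 µM nutlin-3a (the FSL-1 + nutlin-3a group). FSL-1 is a synthetic lipopeptide that stimulates Toll-like receptor 2 together with Toll-like receptor 6, and the series describes the cells kept with it as giant cells with several nuclei. Nutlin-3a frees p53 from the ubiquitin ligase Mdm2. Each group has 2 arrays. Total RNA came from sorted cells. The sort gate, the age and sex of the mice, and whether M-CSF was kept beside FSL-1 are not given in the sources used here. Nothing states that replicates were separate cultures or animals, so the p-values measure only the spread between these arrays, which may be technical.

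The respiratory chain passes electrons from NADH (through complex I) and from succinate (through complex II) by way of ubiquinone, complex III and cytochrome c to complex IV, which reduces oxygen. Complexes I, III and IV pump protons, and ATP synthase uses the resulting gradient to make ATP. Activated macrophages are known to shift between respiration and glycolysis, and complexes I and II are sources or regulators of inflammatory signals in them. A few complex IV subunits exist as a widespread form and as a second form found mainly in muscle, testis or lung.

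All 10 macrophage markers lay above the median level of all genes (5.51 on the log2 scale) when averaged over the arrays, and their mean level was 11.05 to 11.34 on each array. Replicate arrays correlated at 0.9929 to 0.9951 across genes and arrays of different groups at 0.9788 to 0.9858. Each array measures RNA of many cells together, so fewer cells of a type and less RNA per cell cannot be told apart.

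Most subunit genes of the respiratory chain differed between the groups by less than 1.5-fold, and the largest changes were in tissue-specific forms of complex IV. Changes over 1.5-fold upward or downward were found in 3 and 0 of the 89 genes with FSL-1, in 1 and 1 when nutlin-3a was added, and in 3 and 1 with both agents against M-CSF. Most of all genes also stayed below this size. Of the 22180 genes, 854 and 707, 576 and 869, and 903 and 983 exceeded it in the same order. With FSL-1 against M-CSF, 5 of the 89 genes rose and 0 fell at an adjusted p under 0.05 (limma, adjusted over 22180 genes), where 6.86% of all genes passed, 3.91% upward and 2.95% downward. Those that rose were Cox6a2, Cox7b, Uqcrq, Ndufa12 and Cox5a. This count was 1 when M-CSF replicate 1 was left out, 1 when FSL-1 replicate 1 was, and 2 when FSL-1 replicate 2 was. At an unadjusted p under 0.05 stood 15 of the 89 genes, and 21.2% of all genes. The median log2 change of the 89 genes was 0.09, against -0.01 for all genes, and 60 of them (67.4%) had a change above 0, against 48.4% of all genes. The 2 groups did not overlap in 62.9% of the 89 genes (45 higher and 11 lower with FSL-1), against 50.2% of all genes, 24.6% higher and 25.6% lower.

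When nutlin-3a was added to FSL-1, 2 of the 89 genes rose (Cox6b2 and Ndufa7) and 2 fell (Cox6a2 and Ndufs1), and 6.5% of all genes passed, 2.38% upward and 4.12% downward. The median change was -0.05, against 0.02 for all genes. It was -0.00 when nutlin-3a replicate 1 was left out and -0.01 after a further quantile normalization. Of the 89 genes, 38 (42.7%) lay above 0, against 54.2% of all genes. At an unadjusted p under 0.05 stood 19 of the 89 genes, and 21.2% of all genes. The groups did not overlap in 58.4% of the 89 genes (23 higher and 29 lower with nutlin-3a), against 50.9% of all genes, 27.2% higher and 23.7% lower. The genes that rose numbered 0 when FSL-1 replicate 1 was left out, and 1 when FSL-1 replicate 2 or an array with nutlin-3a was. The genes that fell numbered 1 with any single array left out.

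With both agents against M-CSF, there were 4 genes that rose (Cox6b2, Cox7b, Ndufa7 and Ndufb9) and 2 that fell (Cox6a2 and Atp5a1), with 9.51% of all genes called, 4.58% upward and 4.94% downward. The median change was 0.09 (0.05 when M-CSF replicate 1 was left out) against 0.02, and 54 of the 89 genes (60.7%) lay above 0, against 53.4% of all genes. At an unadjusted p under 0.05 stood 26 of the 89 and 23.9% of all genes. The groups were apart in 60.7% of the 89 (37 higher and 17 lower), against 51.5% of all genes, 27.3% higher and 24.2% lower. The 4 genes that rose became 2 when M-CSF replicate 1 or nutlin-3a replicate 1 was left out, and the 2 that fell became 1 with any single array left out. The 3 comparisons share arrays in pairs, so their values stand side by side here and are not correlated with each other.

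**Figure D1:**
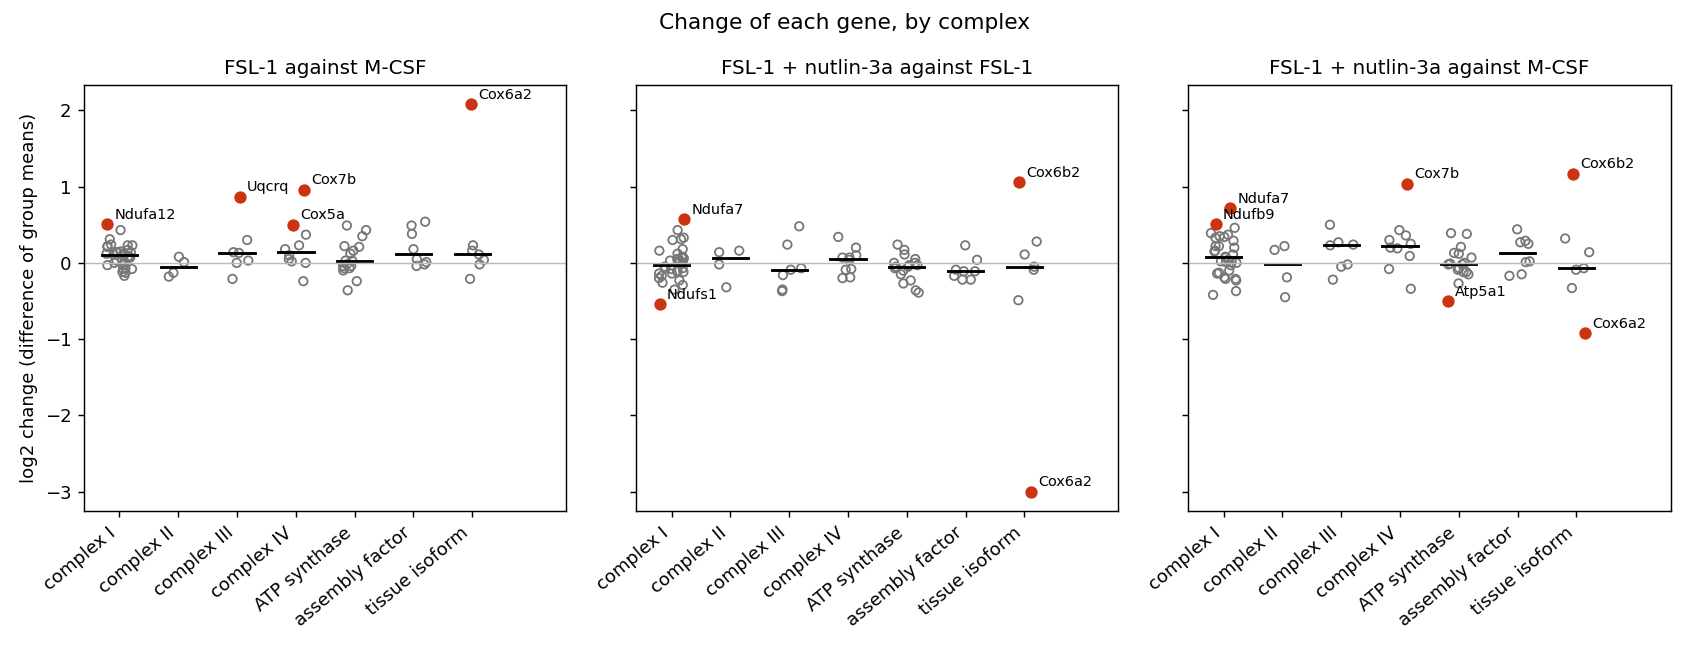
Log2 change (vertical axis, difference of group means) of the genes in 7 classes for the 3 comparisons, with 1 point per gene, filled red points for genes that passed an adjusted p of 0.05 and black bars for the class median; the 2 pseudogenes, Ndufa4l2 and Cox7a2l are left out. Most points lie close to 0, and Cox6a2 stands at 2.08, -3.0 and -0.92 in the 3 panels.

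Cox6a2, the heart and skeletal muscle form of subunit VIa of complex IV, changed more than any other of the 89 genes with FSL-1 and again when nutlin-3a was added. Its log2 level was 6.45 and 6.49 on the M-CSF arrays, 8.51 and 8.59 on the FSL-1 arrays, and 5.48 and 5.62 with FSL-1 + nutlin-3a (probe set 17496857). The 3 groups do not overlap: FSL-1 is highest, M-CSF lies between, and FSL-1 + nutlin-3a is lowest. The level rose 4.24-fold with FSL-1 (log2 change 2.08, SE 0.116, adjusted p = 6.42e-05, limma). Adding nutlin-3a brought an 8-fold decrease (log2 change -3.0, SE 0.116, adjusted p = 0.000119), and the level was 1.89-fold lower than with M-CSF (-0.92, adjusted p = 0.00234). Among 22180 genes the FSL-1 change ranked 75 from the top and the nutlin-3a change 5 from the bottom. These 3 calls held in each of the 14 alternatives run for single genes, leaving out any 1 array included. The 14 are not all distinct: leaving out either array of the group not compared repeats the fit on the compared groups alone.

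The widespread partner Cox6a1 was nearly level, at 12.59 and 12.65 with M-CSF, 12.69 and 12.66 with FSL-1, and 12.73 and 12.71 with FSL-1 + nutlin-3a. Its changes were 0.05, 0.04 and 0.09 (SE 0.11 each), none of which passed. The pair codes for alternative forms of the same position in the enzyme. Levels of different probe sets are not compared here, so the share of the muscle form is not known.

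Muscle markers did not pass where Cox6a2 did. Of 18 listed muscle markers, among them creatine kinase Ckm, cardiac actin Actc1 and myosin Myh7, 0 passed in any of the 3 comparisons with limma. Their median changes were -0.05, 0.07 and -0.02, and their mean level was 4.89 to 5.10 on each array. Ckm itself read 5.33 and 5.28 with M-CSF, 5.07 and 5.24 with FSL-1, and 5.15 and 5.30 with FSL-1 + nutlin-3a. Of 6 brown fat markers, 1 passed: Dio2, a thyroid hormone deiodinase, had a log2 change of 1.23 with FSL-1 and -1.16 when nutlin-3a was added, while Ucp1, the uncoupling protein that defines brown fat, had 0.10 and 0.06. Of 7 measured dendritic cell markers, Ccr7 rose with FSL-1 (0.65) and Itgax with nutlin-3a (0.88), and both calls were lost without FSL-1 replicate 1, FSL-1 replicate 2 and other single arrays. Of 12 neutrophil markers, 3 rose with FSL-1 (Lcn2 by 2.77, S100a8 by 2.40, Cxcr2 by 0.60) and Lcn2 fell by 1.78 with nutlin-3a. The Cxcr2 call did not pass once M-CSF replicate 1 or either FSL-1 array was left out. The mean level of the neutrophil list was 4.94 and 4.96 on the M-CSF arrays, 5.52 and 5.44 on the FSL-1 arrays, and 5.31 and 5.32 with FSL-1 + nutlin-3a, and the brown fat list 4.51 to 4.60, 4.97 to 4.99 and 4.70 to 4.82. The mean level of 10 fibroblast markers was 4.89 and 4.80 with M-CSF, 5.02 and 5.26 with FSL-1, and 4.87 and 4.80 with FSL-1 + nutlin-3a, highest with FSL-1 as for Cox6a2. Of these, 0 were called by limma with FSL-1 (2 at an unadjusted p under 0.05), with Postn, a matrix protein, at 1.31 (adjusted p = 0.25). With nutlin-3a 4 had a decrease over 1.5-fold, and 1 of them passed (Col1a2, -0.80), a call lost when FSL-1 replicate 2 or either nutlin-3a array was left out; Postn had -1.5 (adjusted p = 0.189).

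Of 8 lymphocyte markers Cd4 fell with FSL-1 (-1.01) and rose with nutlin-3a (0.64). The fall did not pass without FSL-1 replicate 1, and the rise did not pass with any compared array left out. Of the 10 macrophage markers 2 rose (Itgam and Adgre1) and 1 fell (Csf1r) with FSL-1, and none of the 3 passed once M-CSF replicate 1 or either FSL-1 array was left out. With nutlin-3a 3 fell (Fcgr1, Cd14 and Mrc1), of which Mrc1 did not pass once either FSL-1 array was left out. The part of these other markers in the Cox6a2 values was not tested.

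The genes on either side of Cox6a2 were looked up after its values had been seen, by their order in the RefSeq gene table (GRCm38.p6). Of the nearest 6 that were measured, 3 on each side, 0 rose with FSL-1, 1 fell (Rgs10, -0.69) and 0 fell with nutlin-3a. The Rgs10 call did not pass once M-CSF replicate 1 or either FSL-1 array was left out. Itgax, the integrin CD11c and the farthest of the 3 on its side, rose with nutlin-3a (adjusted p = 0.0123), the opposite direction to Cox6a2.

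Cox6b2, the testis form of subunit VIb, rose when nutlin-3a was present. Its level was 5.28 and 5.53 with M-CSF, 5.41 and 5.62 with FSL-1, and 6.45 and 6.69 with FSL-1 + nutlin-3a. The arrays with nutlin-3a lie above all the others, while M-CSF and FSL-1 overlap. Replicate 1 of M-CSF and of FSL-1 read below the median of all genes (5.51). Whether such low readings measure RNA or background is not known. It was 2.08-fold higher than with FSL-1 alone (log2 change 1.06, SE 0.149, adjusted p = 0.00685) and 2.25-fold higher than with M-CSF (1.17, adjusted p = 0.00248). The first call was lost without FSL-1 replicate 1 (adjusted p = 0.0669), and the second held in each of the 14 alternatives. With FSL-1 alone its change was 0.11 (adjusted p = 0.759). The widespread partner Cox6b1 read 9.18 and 9.42 with M-CSF, 9.49 and 9.57 with FSL-1, and 9.76 and 9.69 with FSL-1 + nutlin-3a. Its changes of 0.23, 0.20 and 0.43 did not pass (adjusted p = 0.0786 for the last).

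The other tissue-specific forms did not pass in any comparison. Cox4i2, the lung form of subunit IV, read 5.51 and 5.71, then 5.76 and 5.54, then 5.86 and 6.00 in the order M-CSF, FSL-1, FSL-1 + nutlin-3a, and its partner Cox4i1 read 9.57 and 9.57, 9.51 and 9.68, and 10.01 and 9.85. Both were highest with nutlin-3a, by 0.28 for Cox4i2 (adjusted p = 0.294) and 0.34 for Cox4i1 (adjusted p = 0.166) over FSL-1. Cox7a1, the muscle form of subunit VIIa, read 6.04 and 6.35, 6.27 and 6.44, and 5.94 and 5.79, a change of -0.49 with nutlin-3a (adjusted p = 0.0967), while its partner Cox7a2 had 0.07. The testis forms Cox7b2 and Cox8c and the muscle form Cox8b lay below the median of all genes on each array, at 1.91 to 2.30, 4.23 to 4.61 and 3.89 to 4.40. Their changes ran from -0.21 to 0.23. Whether probe sets at such levels measure RNA or background is not known, since the deposited values carry no detection calls.

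**Figure D2:**
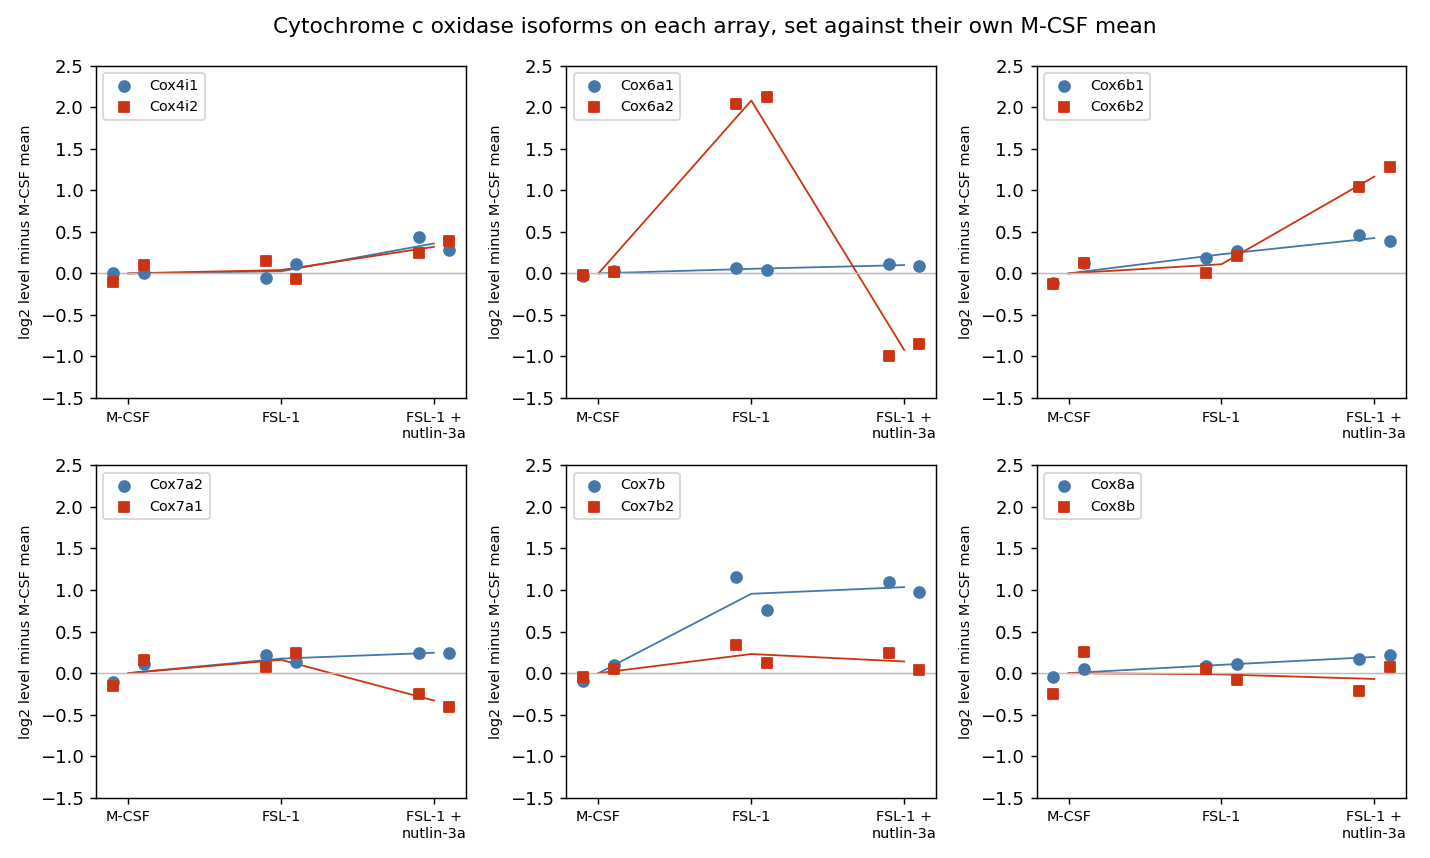
Log2 level on each array minus the gene's own mean over the M-CSF arrays (vertical axis), for 6 pairs of a widespread form (blue circles) and a tissue-specific form (red squares) of complex IV subunits; lines join group means of 2 arrays. Cox6a2 rises with FSL-1 and falls below its M-CSF level with nutlin-3a, Cox6b2 is highest with FSL-1 + nutlin-3a, and the points of the other tissue forms lie within 0.5 of 0.

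Promoter sequences are shown for the Cox6b pair and for Cox6a1, to show what these forms hold near their start sites; no window of Cox6a2 was used here, so the Cox6a pair is not set side by side. Windows of 300 bases, from 250 before to 50 after the transcription start, came from RefSeq (GRCm38.p6) and cover 60 of the 70 complex genes. They were searched on both strands for GCGCATGC, the core of the site of NRF1, a factor known for driving respiratory chain genes, for CCGGAAG, bound by ETS factors such as GABPA, and for AAGGTCA, the core site of the receptor ESRRA. The NRF1 core was present in 10 of the 60 windows (16.7%), against 2.8% of all 27025 windows. The ETS letters were in 16 (26.7%), against 9.12%, and the ESRRA site in 6 (10%), against 4.66%. The windows of the complex genes are richer in G and C (median 58.8%) than all windows (52.7%). Of the 7 tissue forms, 4 have a window, and 0 of the 4 hold any of the 3 motifs. The widespread forms Cox7a2 and Cox7b hold none of them either. Of the 9 windows of complex IV, 1 holds the NRF1 core, 3 the ETS letters and 0 the ESRRA site. The windows of Cox6a1 (chr5:115348909-115349208, minus strand), Cox6b1 (chr7:30626065-30626364, minus strand) and Cox6b2 (chr7:4753045-4753344, minus strand) are given 5′ to 3′ along the gene, with matches in capitals.
Cox6a1: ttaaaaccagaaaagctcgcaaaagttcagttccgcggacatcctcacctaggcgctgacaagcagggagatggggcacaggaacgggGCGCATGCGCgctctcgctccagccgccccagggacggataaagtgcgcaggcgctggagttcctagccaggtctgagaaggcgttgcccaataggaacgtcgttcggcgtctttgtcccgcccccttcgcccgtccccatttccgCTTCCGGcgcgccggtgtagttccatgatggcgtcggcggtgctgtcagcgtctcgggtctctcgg
Cox6b1: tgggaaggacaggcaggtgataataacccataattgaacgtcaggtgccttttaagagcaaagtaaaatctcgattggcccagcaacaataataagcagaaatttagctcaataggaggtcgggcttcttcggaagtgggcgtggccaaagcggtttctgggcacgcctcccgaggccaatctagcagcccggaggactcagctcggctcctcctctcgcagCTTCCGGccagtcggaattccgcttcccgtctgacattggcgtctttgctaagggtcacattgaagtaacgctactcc
Cox6b2: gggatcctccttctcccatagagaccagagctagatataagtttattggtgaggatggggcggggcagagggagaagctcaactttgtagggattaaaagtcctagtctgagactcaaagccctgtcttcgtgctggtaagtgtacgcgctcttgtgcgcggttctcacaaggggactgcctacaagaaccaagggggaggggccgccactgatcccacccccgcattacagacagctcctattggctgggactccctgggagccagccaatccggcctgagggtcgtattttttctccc
In Cox6a1 the first capitals are the NRF1 core read on both strands, starting at -162 and -160 and overlapping, and the second, at -16, is the ETS motif on the opposite strand. Cox6b1 has the ETS motif at -28. Cox6b2, the member of its pair that rose with nutlin-3a, has no match in this window. A match describes letters and shows no binding.

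Complex I, which takes electrons from NADH, had 1 of 32 genes that rose with FSL-1, 1 that rose and 1 that fell when nutlin-3a was added, and 2 that rose with both agents against M-CSF. Of all genes, 3.91% rose with FSL-1, 2.38% rose and 4.12% fell with nutlin-3a, and 4.58% rose with both agents. The median changes of complex I were 0.11, -0.02 and 0.08. The 6 measured core subunits, most of which carry the flavin or iron-sulfur clusters, and the 26 accessory subunits around them had different medians. The core medians were -0.06, -0.13 and -0.18, and the accessory medians were 0.13, 0.02 and 0.15. This difference was not tested, and 5 of the 6 core genes lay below 0 with both agents against M-CSF, against 6 of the 26 accessory genes. Of all 22180 genes, 10327 lay below 0 there. In that comparison 0 of the 6 core genes and 2 of the 26 accessory genes passed.

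Among the core subunits, Ndufs1, the largest, which holds several iron-sulfur clusters, fell when nutlin-3a was added. It read 8.85 and 8.92 with M-CSF, 9.06 and 8.94 with FSL-1, and 8.50 and 8.42 with FSL-1 + nutlin-3a, lowest in the last group with no overlap. The change was -0.54 against FSL-1 (SE 0.116, adjusted p = 0.0352) and -0.42 against M-CSF (adjusted p = 0.0601). The call against FSL-1 was lost in 9 of 14 alternatives, among them leaving out any 1 array. Ndufs8, an iron-sulfur subunit close to the ubiquinone site, read 9.15 and 9.21, 8.92 and 9.10, and 8.79 and 8.83, in the same order of groups, and its change of -0.37 against M-CSF did not pass (adjusted p = 0.0972). Ndufs3 had -0.12, -0.11 and -0.23 in the 3 comparisons. Ndufs7 had -0.08, 0.05 and -0.03. Ndufv1, which binds NADH and the flavin, had -0.03, 0.05 and 0.01, and Ndufv2, which works beside it, 0.01, -0.14 and -0.13.

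The accessory subunits supplied the complex I genes that rose. Ndufa12, an accessory subunit of the matrix arm, read 7.84 and 8.03 with M-CSF, 8.44 and 8.44 with FSL-1, and 8.23 and 8.31 with FSL-1 + nutlin-3a. Both FSL-1 arrays lie above all others, and the change with FSL-1 was 0.51 (SE 0.12, adjusted p = 0.0457), a call lost in 13 of 14 alternatives, among them leaving out any 1 array. Its other probe set had 0.32. Ndufa7, also of the matrix arm, read 7.24 and 7.51, 7.50 and 7.54, and 8.17 and 8.01. It rose by 0.57 when nutlin-3a was added (SE 0.135, adjusted p = 0.0474), lost in 7 of 14 alternatives, among them leaving out any 1 of the 4 compared arrays. Against M-CSF it rose by 0.72 (adjusted p = 0.0146), lost when the first M-CSF array or the first nutlin-3a array was left out. Ndufb9, of the membrane arm, read 10.73 and 10.76, 10.96 and 10.94, and 11.26 and 11.25. Its 3 groups step upward without overlap, and FSL-1 + nutlin-3a against M-CSF passed (0.51, SE 0.109, adjusted p = 0.0256), a call lost in 9 of 14 alternatives, among them leaving out any 1 array. The lowest accessory changes that did not pass were -0.13 with FSL-1 for Ndufb11 and -0.35 with nutlin-3a for Ndufs4.

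**Figure D3:**
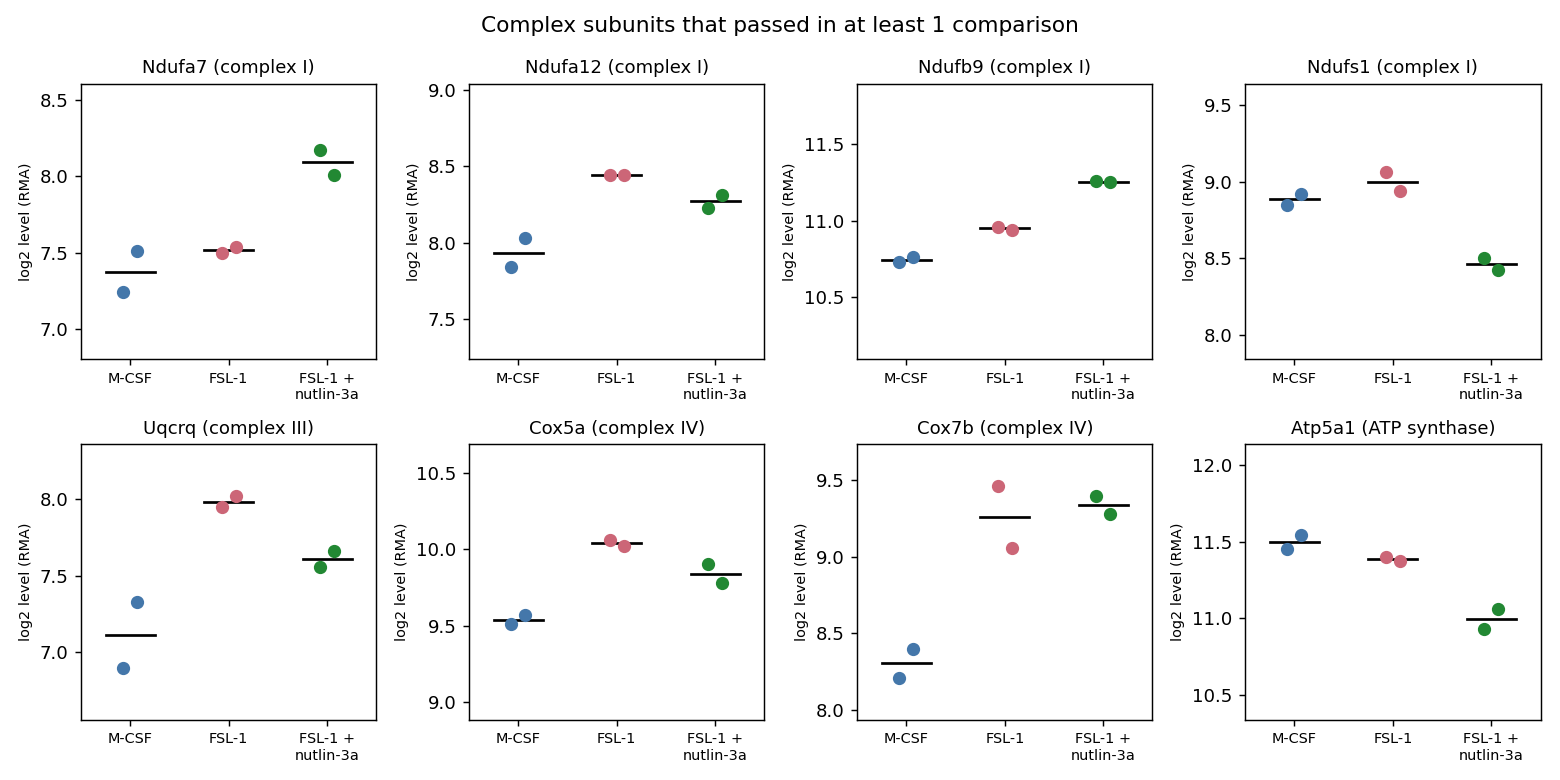
Log2 level (vertical axis, RMA values) on each of the 6 arrays for the 8 complex subunits that passed in at least 1 comparison, with points for arrays, black bars for group means of 2 arrays. Uqcrq and Cox5a are highest with FSL-1, Ndufa7 and Ndufb9 are highest with FSL-1 + nutlin-3a, and Ndufs1 and Atp5a1 are lowest there.

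Complex II, succinate dehydrogenase, which also serves the citric acid cycle, had 0 of 4 genes called with limma in any comparison. At an unadjusted p under 0.05 stood 0, 1 and 1 of the 4 genes in the 3 comparisons, against 21.2%, 21.2% and 23.9% of all genes. Sdha, the flavoprotein that oxidises succinate, read 10.83 and 10.83 with M-CSF, 10.60 and 10.71 with FSL-1, and 10.74 and 10.54 with FSL-1 + nutlin-3a, below M-CSF on all 4 other arrays, by 0.18 and 0.19 (adjusted p = 0.491 and 0.395). Sdhb, the iron-sulfur subunit, read 8.66 and 8.55, 8.57 and 8.66, and 8.71 and 8.85. The membrane anchors differed in sign: Sdhc had changes of 0.08, 0.14 and 0.22, and Sdhd -0.13, -0.32 and -0.45. Sdhd read 9.63 and 9.64, 9.45 and 9.55, and 9.11 and 9.26, stepping downward without overlap, and its change against M-CSF had an adjusted p of 0.0529.

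Complex III, which passes electrons from ubiquinol to cytochrome c, had 1 of 7 genes called, with FSL-1, where 6.86% of all genes passed. Uqcrq, a small membrane subunit, read 6.90 and 7.33 with M-CSF, 7.95 and 8.02 with FSL-1, and 7.56 and 7.66 with FSL-1 + nutlin-3a. The groups do not overlap, with FSL-1 highest, and the rise with FSL-1 was 1.83-fold (log2 change 0.87, SE 0.156, adjusted p = 0.0165), which did not pass once M-CSF replicate 1 or either FSL-1 array was left out. Against M-CSF the FSL-1 + nutlin-3a arrays were higher by 0.50 (adjusted p = 0.0931). Uqcrh, the acidic hinge protein that contacts cytochrome c1, had the lowest FSL-1 change of the complex (-0.21) and the highest change with nutlin-3a (0.48, adjusted p = 0.0641), reading 7.70 and 7.78, 7.49 and 7.56, and 8.12 and 7.90. The core proteins were close to level: Uqcrc1 had 0.03, -0.09 and -0.05, and Uqcrc2 0.14, -0.16 and -0.02. The Rieske iron-sulfur protein Uqcrfs1 had 0.13, -0.35 and -0.22, none of which passed. Cyc1, cytochrome c1, which sits in this complex but falls outside the symbol rule, had 0.29 with FSL-1 (adjusted p = 0.215) and 0.46 with both agents against M-CSF (adjusted p = 0.0566).

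Complex IV, cytochrome c oxidase, had the highest class median of the 5 complexes with FSL-1 (0.14, next to 0.13 for complex III). It was 0.06 for nutlin-3a added to FSL-1 and 0.22 for FSL-1 + nutlin-3a against M-CSF. Set against each gene's M-CSF mean, the median over its 10 widespread genes was -0.04 and 0.04 on the M-CSF arrays, 0.137 and 0.125 on the FSL-1 arrays, and 0.211 and 0.241 with FSL-1 + nutlin-3a. Cox7b, a small membrane subunit, read 8.21 and 8.40 with M-CSF, 9.46 and 9.06 with FSL-1, and 9.40 and 9.28 with FSL-1 + nutlin-3a. Both treated groups lie above M-CSF and overlap each other. It rose 1.95-fold with FSL-1 (log2 change 0.96, SE 0.158, adjusted p = 0.0117), which did not pass once the first M-CSF array or the first FSL-1 array was left out. Against M-CSF it rose 2.05-fold with FSL-1 + nutlin-3a (1.04, adjusted p = 0.00561), which held in each of the 14 alternatives. A second, dimmer probe set for Cox7b had changes of 0.23 and 0.38 in these comparisons.

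Cox5a, a small subunit on the matrix side, read 9.51 and 9.57 with M-CSF, 10.06 and 10.02 with FSL-1, and 9.90 and 9.78 with FSL-1 + nutlin-3a. Its groups do not overlap, and it rose by 0.50 with FSL-1 (SE 0.114, adjusted p = 0.0412), a call lost in 12 of 14 alternatives, among them leaving out any 1 array. Cox7c had the lowest change of the complex with FSL-1 (-0.24) and against M-CSF with both agents (-0.34, adjusted p = 0.316), with readings of 5.52 and 6.10 on the FSL-1 + nutlin-3a arrays. Cox8a had 0.10, 0.10 and 0.20, Cox7a2 0.18, 0.07 and 0.25, and Ndufa4 -0.00, -0.08 and -0.08. Outside the core enzyme, Cox7a2l, which ties complexes III and IV into supercomplexes, had 0.15, 0.17 and 0.32, and Ndufa4l2, a hypoxia-induced relative of Ndufa4, 0.17, -0.03 and 0.14.

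ATP synthase had 0 of 17 genes called with limma with FSL-1 or when nutlin-3a was added (3 of 17 at an unadjusted p under 0.05 in each), and 1 that fell with both agents against M-CSF. Of all genes, 21.2% stood under this unadjusted p in each, and 4.94% fell with both agents. The class medians were 0.03, -0.05 and -0.02. Atp5a1, the alpha subunit of the catalytic head, read 11.45 and 11.54 with M-CSF, 11.40 and 11.37 with FSL-1, and 10.93 and 11.06 with FSL-1 + nutlin-3a, stepping downward without overlap. It fell by 0.50 against M-CSF (SE 0.115, adjusted p = 0.0339), a call lost in 10 of 14 alternatives, among them leaving out any 1 array. Against FSL-1 its change was -0.39 (adjusted p = 0.093). All 5 genes of F1, the head with its central stalk (Atp5a1, Atp5b, Atp5c1, Atp5d and Atp5e), had changes below 0 when nutlin-3a was added. These ran from -0.39 to -0.03, with a median of -0.27. The second probe set of Atp5e had -0.07, where the kept one had -0.36. The 3 genes of the c ring had a median of 0.17, with 1 below 0. Of the other 9 genes, 7 lay below 0 (median -0.05), as did 10148 of all 22180 genes. None of the 17 genes passed in this comparison.

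The catalytic beta subunit Atp5b read 11.69 and 11.87, 11.89 and 11.92, and 11.62 and 11.64, and its changes of 0.12, -0.27 and -0.15 did not pass. Atp5c1, the rotating central shaft, had 0.03, -0.05 and -0.02. Among the c ring genes, which code for the same mature protein, Atp5g1 had the lowest FSL-1 change of the complex (-0.36, adjusted p = 0.243) and Atp5g2 and Atp5g3 had -0.04 and 0.03. The highest FSL-1 change was that of Atp5md, a small membrane subunit, at 0.49 (adjusted p = 0.0568), with 10.20 and 10.42 on the M-CSF arrays against 10.83 and 10.77. Atp5o, the stator subunit that joins head and stalk, had the lowest change of the remaining 9 genes with nutlin-3a (-0.23) and against M-CSF (-0.27).

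The 8 assembly factors of complex I among the 89 genes had medians of 0.12, -0.11 and 0.13, and 0 passed with limma in any comparison (3, 0 and 2 at an unadjusted p under 0.05). Of all genes, 21.2%, 21.2% and 23.9% stood under this unadjusted p. Ndufaf4 had the highest change with FSL-1, 0.54 (adjusted p = 0.0583), reading 6.69 and 6.77 with M-CSF and 7.36 and 7.18 with FSL-1. Of 40 further measured assembly factors of the 5 complexes, 0 passed with FSL-1 (median 0.15) and 1 rose when nutlin-3a was added. That was Pet100, a complex IV assembly protein (0.61, adjusted p = 0.0226), which no longer passed with any of the 4 compared arrays left out. The pseudogenes Atp5c1-ps and Uqcrh-ps1 read 2.59 to 3.69 and 2.82 to 3.48 over the 6 arrays and did not pass.

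Where 9 of the 89 genes had a second probe set, the kept one was brighter by choice. With FSL-1 the second probe sets of Atp5d (0.46 against 0.16 for the kept one), Atp5e (0.09 against 0.35), Cox5b (-0.05 against 0.37) and Ndufa11 (-0.06 against 0.22) had other values, while those of Ndufa8, Atp5g2 and Atp5h differed from the kept ones by 0.05 or less. None of these kept probe sets passed.

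Several genes that feed or surround the chain passed, with cytochrome c, fumarase, Hspa9 and Sod2 among them. Of all genes, 6.86% passed with FSL-1, 6.5% when nutlin-3a was added and 9.51% with both agents against M-CSF. Whether the lists below differ from these shares was not tested. Of 22 measured electron carriers and ubiquinone synthesis genes, 3 rose with FSL-1 and 0 fell (1 or 2 rose with a compared array left out). Cytochrome c (Cycs), the carrier between complexes III and IV, read 9.24 and 9.52 with M-CSF, 10.39 and 10.31 with FSL-1, and 9.90 and 10.01 with FSL-1 + nutlin-3a. It rose by 0.97 with FSL-1 (adjusted p = 0.00564), a call lost without FSL-1 replicate 1. Coq10b, a ubiquinone-binding protein, rose by 1.18 and the glycerol phosphate dehydrogenase Gpd2, which feeds ubiquinone, by 0.64. Coq7, of ubiquinone synthesis, fell by 0.60 when nutlin-3a was added, which no longer passed with any of the 4 compared arrays left out. With both agents against M-CSF 4 rose (Coq10b, Coq5, Cycs and Gpd2) and 1 fell (Etfb), which became 1 and 0 with any compared array left out.

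Of 17 measured genes of pyruvate dehydrogenase and the citric acid cycle, 17 had a change below 0 when nutlin-3a was added to FSL-1, where 54.2% of all genes lay above 0. The median was -0.29 against 0.02 for all genes, and 2 passed: Pdhb (-0.74, adjusted p = 0.0245) and Dld (-0.63, adjusted p = 0.0194), subunits of pyruvate dehydrogenase, the second shared with oxoglutarate dehydrogenase. Pdhb read 9.42 and 9.39 with M-CSF, 9.52 and 9.40 with FSL-1, and 8.55 and 8.90 with FSL-1 + nutlin-3a, lowest in the last group. With FSL-1 alone the median was 0.07 and Idh3a rose by 0.47. With both agents against M-CSF, Fh1, fumarase, which takes the product of complex II, fell by 0.85 (adjusted p = 0.00405), and Pdhb and Idh2 fell by 0.68 and 0.48. The Fh1 call held in each of the 14 alternatives, while without 1 of the compared arrays the count of 2 with nutlin-3a was 0 or 1, the count of 3 against M-CSF was 1 or 2, and the Idh3a call was lost.

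Of 20 regulators of mitochondrial biogenesis, 1 rose with FSL-1: Pprc1, a coactivator related to Ppargc1a (0.54, adjusted p = 0.0262), which no longer passed with any of the 4 compared arrays left out. Ppargc1a and Ppargc1b had 0.30 (adjusted p = 0.206) and 0.08, with Ppargc1a at 3.21 to 3.64 on the arrays. When nutlin-3a was added 0 passed with limma, and 17 of 20 changes lay below 0 (median -0.16). Of all 22180 genes, 10148 lay below 0 there (median 0.02). Against M-CSF with both agents, 15 of the 20 lay below 0 (median -0.22), as did 10327 of all genes (median 0.02). With both agents against M-CSF, Tfam, which packages mitochondrial DNA, fell by 0.48 (adjusted p = 0.037), Twnk, its replicative helicase, by 0.69 and Lrpprc by 0.43. Tfam read 6.44 and 6.40, 6.30 and 6.42, and 5.96 and 5.93. Pprc1 rose by 0.50 in the same comparison (adjusted p = 0.0274). None of these 4 calls passed with a compared array left out. The 13 subunits encoded by mitochondrial DNA were looked up, and 0 were found among the 22180 genes, so no changes are given for them.

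Of 25 carriers, porins and import genes, 3 rose with FSL-1 (Hspa9 by 0.73, Hspd1 by 0.56 and Tomm40 by 0.55), and 5 fell when nutlin-3a was added. The count of 3 was 0 or 1 without 1 of the compared arrays. Hspa9, the import chaperone, read 10.81 and 10.99 with M-CSF, 11.62 and 11.65 with FSL-1, and 10.63 and 10.57 with FSL-1 + nutlin-3a, highest with FSL-1 with no overlap. It fell by 1.03 with nutlin-3a (adjusted p = 0.00293), and the porin Vdac3 fell by 0.89 (adjusted p = 0.00444), both in each of the 14 alternatives. Timm9, Vdac2 and Hspd1 fell by 0.72, 0.58 and 0.57, and the 5 became 2 with any compared array left out.

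Of 9 genes of mitochondrial peroxide and superoxide defence, 2 rose and 1 fell with FSL-1. Sod2, the superoxide dismutase of the matrix, read 9.92 and 9.92 with M-CSF, 11.31 and 11.20 with FSL-1, and 10.53 and 10.71 with FSL-1 + nutlin-3a. It rose by 1.33 (adjusted p = 0.000738) and fell by 0.64 when nutlin-3a was added (adjusted p = 0.0227), but the fall no longer passed with any of the 4 compared arrays left out. Gpx1, a glutathione peroxidase, rose by 1.21, and Nnt, which makes mitochondrial NADPH, fell by 0.64 with FSL-1, which no longer passed with any of the 4 compared arrays left out. Aifm1, a flavoprotein needed for complex I assembly, fell by 0.76 with nutlin-3a (adjusted p = 0.00769), from 8.17 and 8.13 to 7.38 and 7.39, a call lost when either FSL-1 array was left out.

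**Figure D4:**
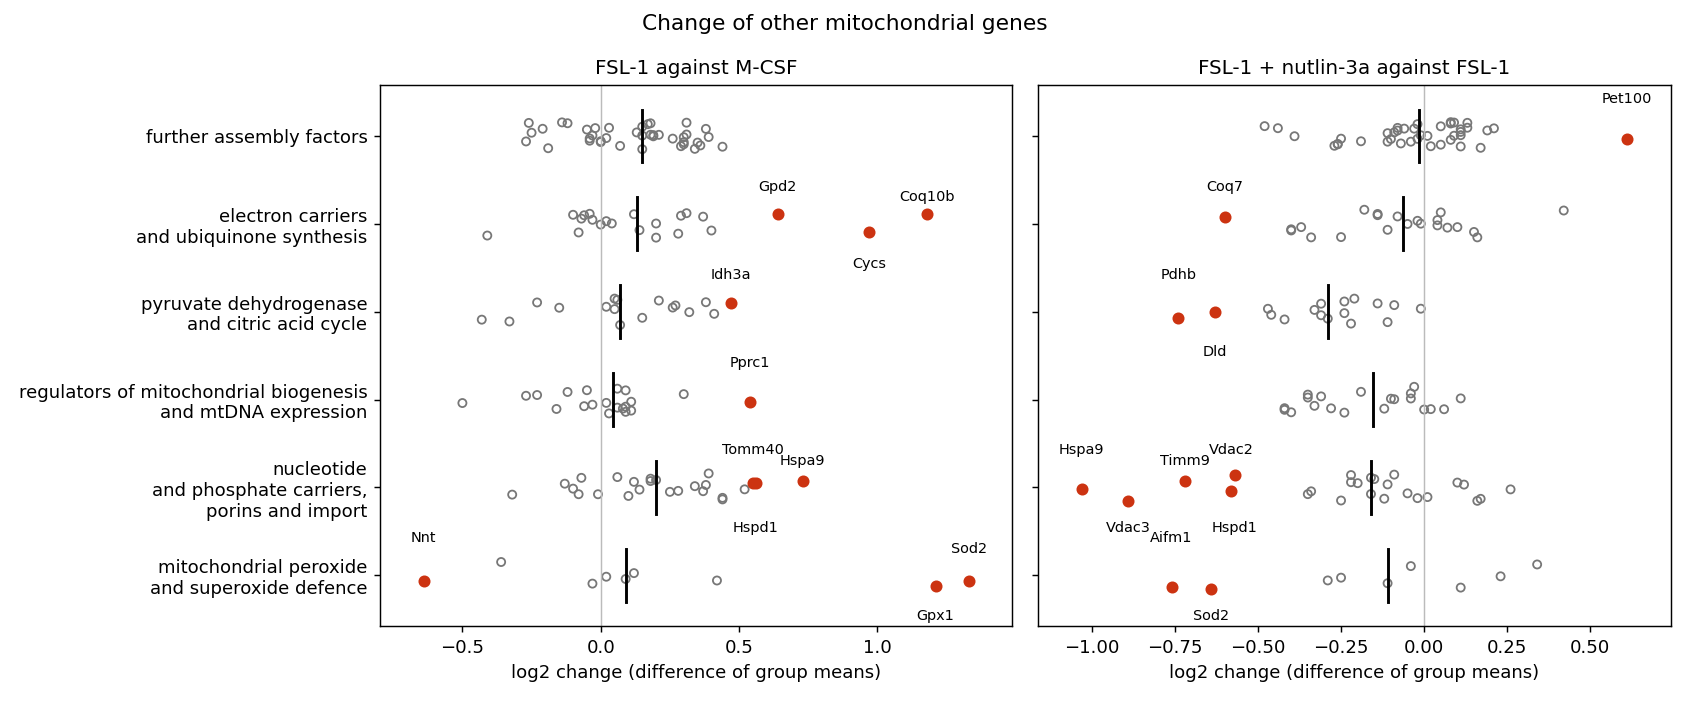
Log2 change (horizontal axis, difference of group means) of genes in 6 other mitochondrial lists, for FSL-1 against M-CSF (left) and FSL-1 + nutlin-3a against FSL-1 (right), with 1 point per gene, filled red points for genes that passed an adjusted p of 0.05 and black bars for list medians. In the right panel all 17 genes of pyruvate dehydrogenase and the citric acid cycle lie below 0, and Hspa9 stands at -1.03.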

How the data were processed

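The authors deposited log2 values for each probe set, made by RMA with Affymetrix Expression Console 1.4 (source: the submitters' processing notes). This method corrects background and equalises arrays by quantiles, so a shift shared by most genes would not show. Of 34390 probe sets, 23521 name 1 gene in the platform annotation used; they gave 22180 genes, each by its brightest probe set. No source used here names the annotation's genome build, so the coordinates printed are those of the RefSeq promoter table.

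Linear models with 3 group means and no covariate were fitted to all 6 arrays by limma 3.58.1 (R 4.3.3; 3 residual and 4.88 prior degrees of freedom). The threshold was an adjusted p under 0.05, by Benjamini-Hochberg over all genes. The test was checked on simulated data. Gene lists were described by counts and medians, with no set test. Precision is limited by the number of arrays.

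The members, lists and tests were chosen with earlier results of these data known. Named were the members called in any comparison, the tissue forms and their partners, Ndufa4, Ndufa4l2, Cox7a2l, the Sdh genes, core subunits, the highest and lowest change per complex, and for other lists up to 4 called genes with the smallest p, with Cycs, Cyc1, Ppargc1a, Ppargc1b, Tfam and Sod2. Atp5d, Atp5e, Atp5h, Cox5b, Ndufa8, Ndufa11, the fifth import gene and the neighbours of Cox6a2 were named after their values were seen. Alternatives were another moderation, quantile normalization once more, centring, mean probe sets, a filter on dim genes, the compared groups alone, a replicate block, a 1.5-fold minimum and leaving out each array. Figures were drawn with matplotlib 3.10.9.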

Additional observations from a re-analysis of the deposited data

How the results depend on the processing

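With moderation by trend and robust, 2744 genes were called with FSL-1, 2658 when nutlin-3a was added and 3337 with both agents against M-CSF, and members rose and fell in 11 and 0, 7 and 6, and 15 and 5 cases. Tested over genes above the median level alone (fewer genes tested), the counts were 2682, 2579 and 3290, with members at 10 and 0, 5 and 4, and 15 and 5. Quantile normalization once more gave 3 members that rose with FSL-1 (median 0.06). When nutlin-3a was added it gave 4 that rose and 2 that fell (median -0.01), and against M-CSF 5 and 3. Centring gave 3 that rose with FSL-1, 2 and 2 when nutlin-3a was added, and 4 and 2 against M-CSF. Fitted on the compared arrays alone (fewer arrays), 3 rose with FSL-1. In the same setting 2 rose and 1 fell when nutlin-3a was added, and 3 rose and 1 fell against M-CSF. At a change of at least 1.5-fold, 3 rose with FSL-1, 1 rose and 1 fell when nutlin-3a was added, and 3 rose and 1 fell against M-CSF. For moderation, normalization and centring the cause was not tested.

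With 1 array left out, the counts of all genes ran from 451 to 1299 with FSL-1, from 352 to 1212 when nutlin-3a was added, and from 1158 to 1529 against M-CSF. Members that rose ran from 1 to 3, 0 to 2 and 2 to 4, and members that fell numbered 0, 1 and 1. Their medians ran from 0.06 to 0.11, from -0.06 to -0.00 and from 0.05 to 0.13. A group left with 1 array is assumed to vary like the others. Of 41 named members, 5, 4 and 6 were called in the 3 comparisons, 1, 1 and 3 of these calls held in all alternatives, and 0 reversed. Among the uncalled, the sign turned in 11, 9 and 7.

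Deviations of same-numbered arrays correlated at -0.188 between M-CSF and FSL-1, 0.0175 between M-CSF and FSL-1 + nutlin-3a, and -0.0248 between the groups with FSL-1. Each group has too few arrays for these values to decide whether same-numbered arrays were prepared together. With the replicate block, 3 members rose with FSL-1, 1 rose and 1 fell when nutlin-3a was added, and 3 rose and 1 fell against M-CSF. A crossed block (M-CSF numbers exchanged), chosen after seeing the data, gave 3 that rose with FSL-1. It gave 1 that rose and 2 that fell when nutlin-3a was added, and 4 and 1 against M-CSF.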
